A study of Mus musculus with 8 samples.

Results

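The p53 pathway and Gadd45 genes described here are Trp53, Mdm2, Cdkn1a, Gadd45a, Gadd45b, Gadd45g, Bbc3, Bax, Ccng1 and Sesn1. They were taken by name from a table of 41709 genes in which each of the 10 names stood once, and all 10 passed the filter that left 11530 genes for testing (1 TPM or more in at least 4 of 8 muscles). A TPM value (transcript abundance) is corrected for gene length and library size. RNA was sequenced from 8 tibialis anterior (TA) muscles, the fast muscle at the front of the shin, of 4 male C57BL/6J mice aged 3 months. Each mouse received 1500 pmol of a pool of non-targeting (NT) siRNAs in 30 µl in one TA muscle (group siNT, n = 4) and the same amount of a pool of siRNAs against Uba1 in the other (group siUBA1, n = 4). Both legs had hyaluronidase and electroporation, and muscles were taken 7 days later. The NT siRNAs were in the right leg and the Uba1 siRNAs in the left leg of every mouse, so the leg and the siRNA cannot be told apart. The titles name siUBA1 for all 4 knockdown samples, whereas the treatment field runs from UBA1 to UBA4 over them; they were treated as one group. Electroporation reaches part of the tissue, and no measurement here tells transfected from untransfected fibres. Mice are numbered 1 to 4 by the replicate number in the labels.

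UBA1 is the main E1 enzyme that activates ubiquitin for transfer to proteins. The transcription factor p53, encoded by Trp53, is held at a low level because the ubiquitin ligase MDM2 marks it for the proteasome, and p53 in turn activates the Mdm2 gene. Stabilised p53 also activates genes for cell cycle arrest (Cdkn1a), apoptosis (Bax, Bbc3), growth control and stress defence (Ccng1, Sesn1) and the stress sensor Gadd45a. Gadd45b and Gadd45g encode related small proteins that bind the kinase MTK1 (Map3k4) upstream of p38 and JNK, and they respond mainly to signals other than p53. In skeletal muscle Cdkn1a and Gadd45a are known for their rise with denervation and other atrophy stimuli. The comparison asks which of these mRNAs differed when the first step of ubiquitination was reduced. RNA-seq does not measure p53 protein.

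A p53 response element is a pair of adjoining decamers. The genome (GRCm39) was searched for close matches to it around the start of the canonical transcript of 10853 tested protein-coding genes. The window was 5 kb on each side, on both strands. A match was the consensus with no spacer, an intact core in both decamers and at most 2 mismatches over 20 bases. Such a site lay near 2 of the 10 genes, Cdkn1a and Ccng1, and near 6.91% of all the genes searched. With at most 1 mismatch the same 2 genes had a site, against 1.41% of all genes. The sites are shown 5′ to 3′ on the strand of the gene, with the core of each decamer in capitals.
Cdkn1a, chr17:29309902-29309921, plus strand: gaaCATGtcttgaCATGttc
Ccng1, chr11:40645763-40645782, minus strand: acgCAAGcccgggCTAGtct
The Cdkn1a site began at -2836 from the canonical start and lay just outside the outermost annotated 5′ end of the gene. The Ccng1 site lay in intron 1, with its first base 356 bases after the start. A match describes letters, not binding, and the absence of a match near the other 8 genes says only that these letters were not in the window.

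The Gadd45 genes differed in their core promoters. The 200 bases before the canonical start (GRCm39, strand of the gene) are shown as a description, and any part of them in the mRNA levels was not tested. Capitals mark exact matches, on either strand, to the CCAAT box (CCAAT), the TATA box (TATAAA) and the GC box (GGGCGG).
Gadd45a, chr6:67014391-67014590, minus strand: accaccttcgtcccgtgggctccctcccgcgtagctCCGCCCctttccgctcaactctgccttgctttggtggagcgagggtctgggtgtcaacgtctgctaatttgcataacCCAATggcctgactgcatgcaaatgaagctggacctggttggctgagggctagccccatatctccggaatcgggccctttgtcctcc
Gadd45b, chr10:80765707-80765906, plus strand: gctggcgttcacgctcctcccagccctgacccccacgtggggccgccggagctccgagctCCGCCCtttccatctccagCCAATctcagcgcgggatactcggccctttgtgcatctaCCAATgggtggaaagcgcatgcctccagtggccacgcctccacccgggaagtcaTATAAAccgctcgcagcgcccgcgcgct
Gadd45g, chr13:52000514-52000713, plus strand: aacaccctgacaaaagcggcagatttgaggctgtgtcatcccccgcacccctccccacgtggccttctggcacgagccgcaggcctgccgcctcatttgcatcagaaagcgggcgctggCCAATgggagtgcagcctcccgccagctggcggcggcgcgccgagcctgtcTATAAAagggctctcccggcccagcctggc
A TATAAA match began at -28 in Gadd45b and at -30 in Gadd45g, where a TATA box stands, and there was none in the Gadd45a window. Of 10853 promoters of this length, 5.54% held TATAAA, 31.9% held CCAAT and 47.8% held GGGCGG. Among the 10 genes these counts were 3, 6 and 6. The letters TGACGTCA (a cyclic AMP response element, in 2.03% of promoters) and TGANTCA (an AP-1 element, in 3.58%) were in none of the 10 windows. In the 3 promoters printed above no match overlaps another.

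Uba1 mRNA, the target of the siRNAs, was 60.6 ± 2.11 TPM (mean ± SD, 4 muscles a group here and throughout) in siNT and 15.9 ± 6.83 TPM in siUBA1. It was lower in 4 of 4 mice with no overlap between the groups, and the log2 difference of -1.98 had an adjusted p = 0.0527 in limma (0.0278 with the mouse as a block). Most of the tested genes shifted slightly upwards. The median log2 difference of all 11530 genes was 0.11 and 81.8% of them were above 0. When the TPM were rescaled by median-ratio size factors, the median was 0.00 and 50.7% were above 0. Small differences of the members are therefore given on both scales. TPM keep no record of depth, so no counting interval could be given.

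None of the 10 genes passed an adjusted p of 0.05 (Benjamini-Hochberg over 11530 genes), a threshold met by 0.0260% of all genes. At an unadjusted P under 0.05, Gadd45g and Bax were higher in siUBA1, where the share of all genes was 16.0%. Cdkn1a was lower, against 1.98% of all genes. Adding a log2 difference beyond 0.58, the limit the study used, left Gadd45g on the higher side (0.442% of all genes) and Cdkn1a on the lower side (0.833%), both only just past it. No gene of the 10 had groups without overlap, which 10.6% of all genes had in the higher direction and 1.01% in the lower. Within mice, Gadd45g, Bax and Sesn1 were higher in 4 of 4 (32.2% of all genes) and Cdkn1a and Gadd45b were lower in 4 of 4 (2.98%).

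With the mouse as a block in limma, again none of the 10 passed the adjusted threshold, met by 0.494% of all genes. At an unadjusted P under 0.05 in that fit, Gadd45g, Bax and Sesn1 were higher (22.4% of all genes) and Cdkn1a and Gadd45b lower (2.80%). After median-ratio scaling without the block, no member was higher at that threshold (4.43% of all genes), and Cdkn1a, Gadd45a, Bbc3 and Mdm2 were lower (6.18%). With quantile normalization 0 members were higher (4.45% of all genes) and 3 lower (5.16%), and with both the block and median-ratio scaling 1 was higher (6.96%) and 6 lower (8.76%). The split of the 10 between higher and lower thus depended on the scaling, while the direction of each gene but Mdm2 and Ccng1 was kept in every alternative run. The median log2 difference of the 10 genes was -0.07 on deposited TPM and -0.18 after scaling.

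**Figure D1:**
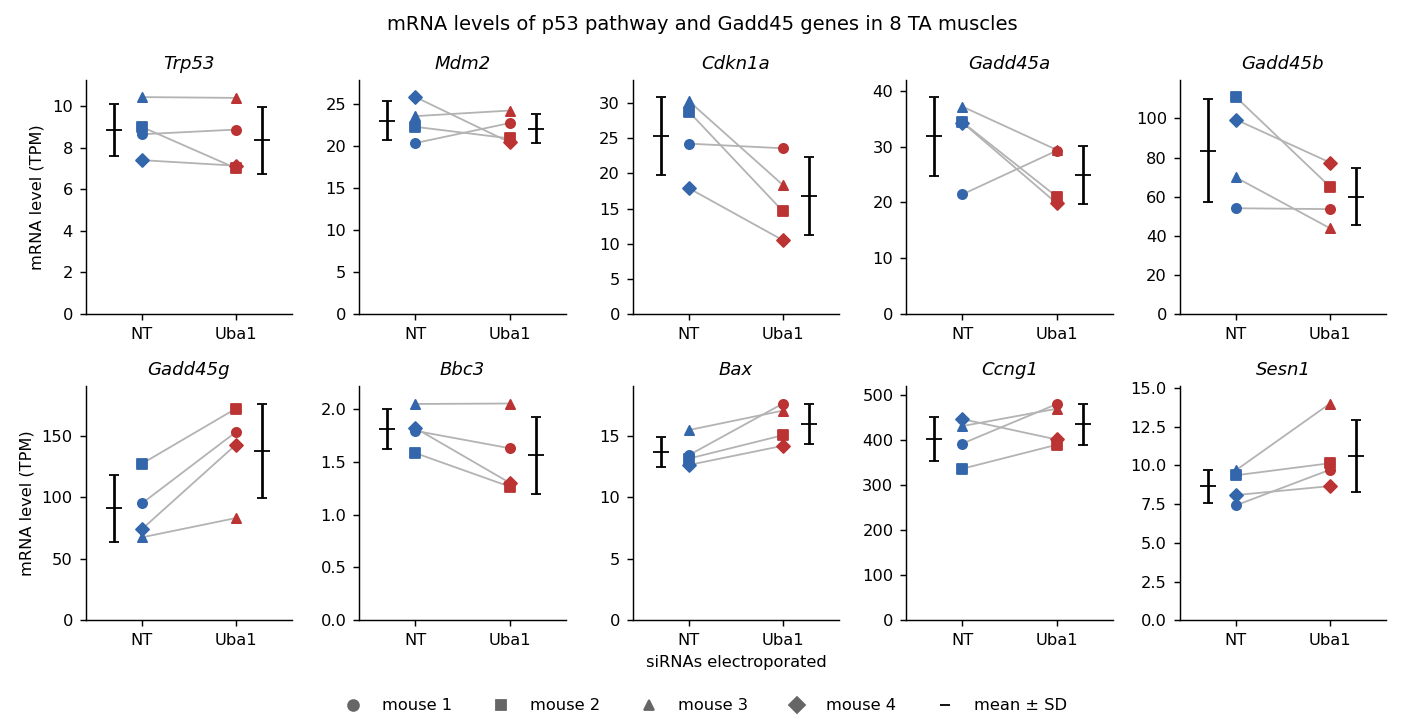
TPM of the 10 genes (vertical axes from 0) in muscles that received NT (blue) or Uba1 (red) siRNAs. Lines join the muscles of 1 mouse and black bars are mean ± SD of 4 muscles. Cdkn1a and Gadd45b lines run downwards and Gadd45g, Bax and Sesn1 lines upwards in 4 of 4 mice, with overlap between the groups in each.

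The mRNA of p53 itself and that of its ligase showed no difference that passed a test on deposited TPM. Trp53 (chr11:69469669-69482701, plus strand) was 8.64, 8.99, 10.4 and 7.39 TPM in the NT muscles of mice 1 to 4 and 8.86, 7.0, 10.4 and 7.13 TPM in their Uba1 muscles. The values followed the mouse more than the siRNA: mouse 3 was highest in both groups. The log2 difference (siUBA1 minus siNT, on log2(TPM + 1), here and below) was -0.08 with a 95% interval of -0.39 to 0.22. With median-ratio scaling it was -0.19, with an unadjusted P = 0.0905 in limma and 0.0185 when the mouse was also a block. The library kit does not keep strand, and Trp53 shares 1483 bp with Wrap53 on the opposite strand, so reads from that stretch cannot be assigned. Wrap53 was listed at 3.45 to 5.69 TPM over the 8 muscles.

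Mdm2 (chr10:117524780-117546730, minus strand) was 20.3, 22.2, 23.5 and 25.8 TPM in the NT muscles and 22.7, 20.9, 24.2 and 20.4 TPM in the Uba1 muscles. It was higher in 2 mice and lower in 2. Its log2 difference of -0.05 (95% interval -0.25 to 0.14) became -0.17 with median-ratio scaling, with an unadjusted P = 0.0465 and an adjusted p = 0.456 in limma. Mdm4 encodes the relative of MDM2 that binds p53 but is a weak ligase alone. The Mdm2 to Mdm4 ratio within a muscle, which no scaling of the library changes, was 3.08, 3.54, 3.25 and 3.21 in siNT and 2.79, 2.87, 2.87 and 2.61 in siUBA1. This ratio was lower in 4 of 4 mice and the groups did not overlap. The exact two-sided permutation test gave p = 0.0286, the smallest possible with 4 against 4, and 0.0999 after adjustment over the 7 ratios and shares tested. Paired by mouse, the exact permutation p was 0.125, the smallest that 4 pairs allow. Mdm2 to Trp53 was 2.64 ± 0.570 in siNT and 2.68 ± 0.295 in siUBA1 (exact permutation p = 0.857, the same after adjustment).

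Cdkn1a, which encodes the cyclin-dependent kinase inhibitor p21, had the lowest log2 difference of the 10 genes over all 8 muscles, although that of Gadd45b was lower without siNT replicate 1 (-0.63 against -0.61), siNT replicate 3 (-0.51 against -0.50) or siUBA1 replicate 4 (-0.58 against -0.40). It lies at chr17:29309936-29319701 on the plus strand, next to the match to the p53 consensus printed above. The NT muscles of mice 1 to 4 held 24.2, 28.8, 30.3 and 17.9 TPM and the Uba1 muscles 23.6, 14.6, 18.3 and 10.5 TPM. The decrease was almost nil in mouse 1, with a log2 ratio of -0.04, and clear in mice 2 to 4, at -0.93, -0.69 and -0.72. The groups overlapped because the NT muscle of mouse 4 was below the Uba1 muscles of mice 1 and 3. Group means were 25.3 ± 5.57 and 16.7 ± 5.57 TPM, a ratio of 0.662.

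For Cdkn1a the log2 difference was -0.60 (SE 0.236, 95% interval -1.13 to -0.06), with an unadjusted P = 0.0317 and an adjusted p = 0.241 in limma. With the mouse as a block limma gave an unadjusted P = 0.00319 and an adjusted p = 0.0898, and with median-ratio scaling the difference was -0.71. The exact permutation p over the 8 muscles was 0.0857. Cdkn1b encodes p27, another inhibitor of the same family, and was near constant at 18.8 ± 0.883 and 19.4 ± 0.910 TPM. The Cdkn1a to Cdkn1b ratio was 1.36 ± 0.350 in siNT and 0.855 ± 0.256 in siUBA1, lower in 4 of 4 mice (exact permutation p = 0.0571, 0.0999 adjusted over 7). Cdkn1a shares 7579 bp with a lncRNA gene on the opposite strand, and without strand its reads may include those of the lncRNA.

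Ccng1, the other gene with a match in the search for the p53 consensus, did not follow Cdkn1a. It encodes cyclin G1, which recruits phosphatase 2A to MDM2, and lies at chr11:40639377-40646148 on the minus strand. It was by far the most abundant of the 10 mRNAs, at 392, 336, 431 and 446 TPM in siNT and 479, 389, 469 and 401 TPM in siUBA1. The values were higher in mice 1 to 3 and lower in mouse 4. The log2 difference was 0.12 (95% interval -0.13 to 0.36) on deposited TPM and 0.00 after median-ratio scaling. Ccng1 shares 3787 bp with Nudcd2 on the opposite strand, which was listed at 6.45 to 10.7 TPM.

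The log2 differences of the Gadd45 mRNAs were not all of the same sign. None passed the adjusted threshold, and without the block on deposited TPM only Gadd45g had an unadjusted P under 0.05 in limma. Gadd45g was higher in 4 of 4 mice, Gadd45b was lower in 4 of 4 and Gadd45a was lower in 3 of 4, while their sum was 206 ± 47.2 TPM in siNT and 223 ± 45.2 TPM in siUBA1. That sum was higher in 2 mice and lower in 2 (exact permutation p = 0.629). Gadd45a (chr6:67012070-67014441, minus strand) was 21.5, 34.4, 37.2 and 34.3 TPM in siNT and 29.3, 21.1, 29.5 and 19.9 TPM in siUBA1. Mouse 1 went against the others, with a log2 ratio of 0.43 where mice 2 to 4 had -0.68, -0.33 and -0.76. The log2 difference was -0.33 (SE 0.190, 95% interval -0.76 to 0.09, unadjusted P = 0.112 and adjusted p = 0.360 in limma). With median-ratio scaling it was -0.45 with an unadjusted P = 0.0236 and an adjusted p = 0.371 in limma.

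Gadd45b (chr10:80764523-80768038, plus strand) was 54.1, 111, 69.8 and 99.4 TPM in the NT muscles and 53.6, 65.0, 43.8 and 77.4 TPM in the Uba1 muscles. As for Cdkn1a, mouse 1 was almost unaltered (log2 ratio -0.01) and the other mice were lower, at -0.76, -0.66 and -0.36. The differences between mice were as large as those between siRNAs, and the groups overlapped. Group means were 83.5 ± 26.2 and 60.0 ± 14.5 TPM. The log2 difference of -0.45 (SE 0.241) had an unadjusted P = 0.0951 and an adjusted p = 0.340 in limma. With the mouse as a block limma gave an unadjusted P = 0.00802 and an adjusted p = 0.113, and with median-ratio scaling the difference was -0.57. Leaving out 1 muscle gave differences from -0.63 (without siNT replicate 1) to -0.29 (without siNT replicate 2).

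Gadd45g (chr13:52000714-52002508, plus strand) had the largest increase among the 10 genes. Its values were 95.1, 127, 67.5 and 74.2 TPM in siNT and 153, 172, 83.2 and 143 TPM in siUBA1. Each mouse was higher in the Uba1 leg, with log2 ratios of 0.68, 0.43, 0.30 and 0.94, but the Uba1 muscle of mouse 3 lay within the NT range. Group means were 91.1 ± 26.9 and 138 ± 38.4 TPM, a ratio of 1.51. The log2 difference was 0.59 (SE 0.252, 95% interval 0.02 to 1.16), with an unadjusted P = 0.0442 and an adjusted p = 0.266 in limma. With the mouse as a block P was 0.000889 and the adjusted p 0.0679, the lowest among the 10 genes in that fit. With median-ratio scaling the difference was 0.47, with an unadjusted P = 0.133 in limma.

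Within the summed Gadd45 TPM of a muscle, the Gadd45g share was 55.7%, 46.7%, 38.7% and 35.7% in the NT muscles of mice 1 to 4 and 64.9%, 66.7%, 53.2% and 59.5% in their Uba1 muscles. It was higher in 4 of 4 mice. The Gadd45b share was 40.0 ± 6.60% in siNT and 27.0 ± 4.09% in siUBA1, lower in 4 of 4. For both shares the exact permutation p was 0.0571 and 0.0999 after adjustment over 7. The Gadd45a share was 15.8 ± 4.14% and 11.9 ± 5.01% (exact permutation p = 0.200, 0.280 adjusted). In siNT the Gadd45g and Gadd45b levels overlapped, from 67.5 to 127 TPM and from 54.1 to 111 TPM, whereas in siUBA1 the lowest Gadd45g level of 83.2 TPM was above the highest Gadd45b level of 77.4 TPM.

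**Figure D2:**
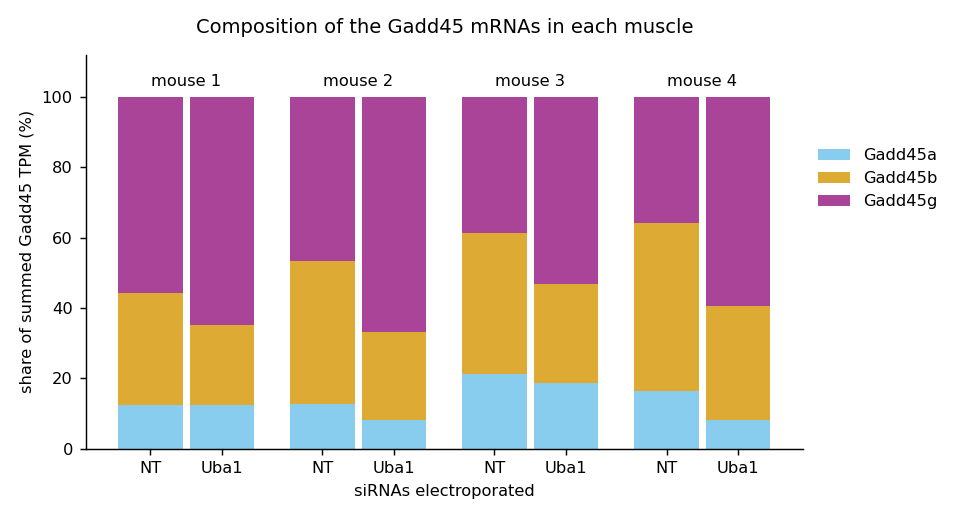
Share of Gadd45a, Gadd45b and Gadd45g in their summed TPM (vertical axis, percent) for the NT and Uba1 muscle of each mouse, 1 bar a muscle. The Gadd45g share was larger and the Gadd45b share smaller in the Uba1 muscle of each of the 4 mice.

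Neither apoptosis gene passed the adjusted threshold, and Bax was higher at an unadjusted P under 0.05. Bax encodes the BCL2 family member that permeabilises the outer mitochondrial membrane. At chr7:45111015-45116325 on the minus strand, it was 13.4, 13.2, 15.5 and 12.6 TPM in siNT and 17.6, 15.1, 17.1 and 14.2 TPM in siUBA1. The groups overlapped only through the NT muscle of mouse 3, which was above the Uba1 muscles of mice 2 and 4. Means were 13.7 ± 1.25 and 16.0 ± 1.62 TPM. The log2 difference was 0.21 (SE 0.0901, 95% interval 0.01 to 0.41), with an unadjusted P = 0.0444 and an adjusted p = 0.267 in limma. In the blocked fit P was 0.0174, and with median-ratio scaling the difference was 0.10 with an unadjusted P = 0.161 in limma. Another protein-coding gene model overlaps 918 bp of Bax on the same strand.

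Bcl2, which encodes 1 of the proteins that restrain BAX, was near the limit of the filter at 0.984 ± 0.244 and 1.18 ± 0.152 TPM. Its relatives Mcl1, Bcl2l2 and Bcl2l1 were more abundant, at 117 ± 12.9, 18.2 ± 1.42 and 6.06 ± 0.216 TPM in siNT. Ratios of Bax to these were not computed. The Bax to Bcl2 ratio was 14.6 ± 3.63 in siNT and 13.7 ± 1.43 in siUBA1, higher in 2 mice and lower in 2 (exact permutation p = 0.857, the same after adjustment). Bbc3 encodes PUMA, a BH3-only activator of apoptosis (chr7:16042318-16052130, plus strand). It was the least abundant of the 10 genes, at 1.79, 1.58, 2.05 and 1.82 TPM in siNT and 1.63, 1.26, 2.05 and 1.30 TPM in siUBA1. Its log2 difference was -0.14 (95% interval -0.39 to 0.11) and, with median-ratio scaling, -0.22 with an unadjusted P = 0.0326 and an adjusted p = 0.420 in limma. At such levels the pseudocount of 1 TPM shrinks the difference.

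Sesn1 encodes sestrin 1, a stress-induced inhibitor of mTORC1 (chr10:41685931-41784423, plus strand). The 4 NT muscles held 7.42, 9.36, 9.68 and 8.08 TPM and the Uba1 muscles 9.72, 10.1, 14.0 and 8.66 TPM. All 4 mice were higher in the Uba1 leg, by log2 ratios of 0.35, 0.10, 0.49 and 0.09, and mouse 3 had the highest level. The log2 difference was 0.26 (SE 0.138, 95% interval -0.05 to 0.57, unadjusted P = 0.0944 and adjusted p = 0.340 in limma), and it was 0.13 without siUBA1 replicate 3. In the blocked fit P was 0.0197 with an adjusted p = 0.143, and with median-ratio scaling the difference was 0.15 with an unadjusted P = 0.255 in limma.

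**Figure D3:**
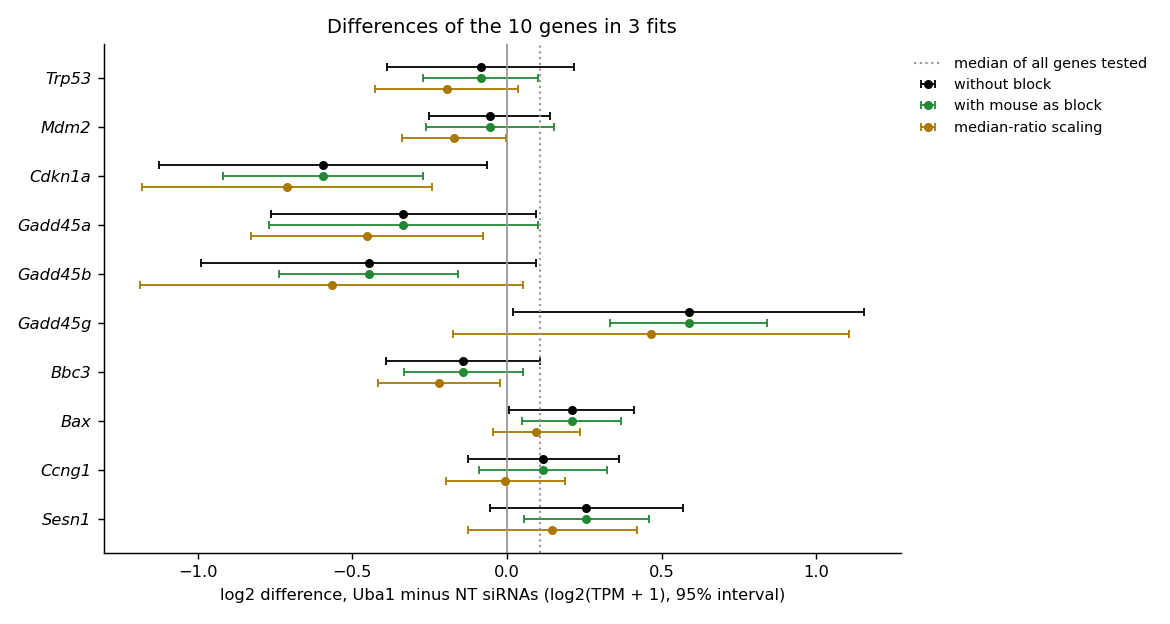
Log2 difference (siUBA1 minus siNT, horizontal axis) of each gene with its 95% interval in 3 limma fits, without the block (black), with the mouse as a block (green) and with median-ratio scaling (ochre). The dotted line is the median of all 11530 genes at 0.11. Cdkn1a has an interval below 0 in each of the 3 fits, and that of Gadd45g includes 0 with median-ratio scaling.

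In the NT muscles the order of the levels was Ccng1, Gadd45g, Gadd45b, Gadd45a, Cdkn1a, Mdm2, Bax, Trp53, Sesn1 and Bbc3. Ccng1 stood apart at 401 ± 49.0 TPM. Gadd45g and Gadd45b could not be ordered beyond their spread, nor could Gadd45a, Cdkn1a and Mdm2, whose ranges all included 21.5 to 25.8 TPM, nor Trp53 and Sesn1. In the Uba1 muscles Cdkn1a, at 16.7 ± 5.57 TPM, overlapped Bax at 16.0 ± 1.62 TPM, which it did not in the NT muscles.

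Other p53 target genes also included higher and lower ones. Of 27 listed, 23 were tested, and at an unadjusted P under 0.05 5 were higher and 2 were lower, where 16.0% of all genes were higher and 1.98% lower. Their median log2 difference was 0.12, beside 0.11 for all genes tested. With median-ratio scaling the balance turned to 3 higher and 5 lower (4.43% and 6.18% of all genes). With the mouse as a block on deposited TPM 7 were higher and 3 lower (22.4% and 2.80% of all genes). None passed the adjusted threshold. Phlda3, an inhibitor of AKT, was 219 ± 17.4 TPM in siNT and 285 ± 14.6 TPM in siUBA1 without overlap (log2 difference 0.38, unadjusted P = 0.000556 and adjusted p = 0.116 in limma). Trp53inp1, a cofactor of p53 in autophagy and apoptosis, was 2.99 ± 0.274 and 4.37 ± 0.557 TPM, and Rrm2b, the p53-inducible ribonucleotide reductase subunit, 4.64 ± 0.514 and 6.13 ± 0.343 TPM, both also without overlap. Fas and Ephx1 were the other 2 higher genes on deposited TPM without the block and were named after their values were seen. The 3 that stayed higher with median-ratio scaling were Phlda3, Trp53inp1 and Rrm2b, at log2 differences of 0.26, 0.33 and 0.24.

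The lower p53 targets on deposited TPM without the block were Btg2 and Plk3. With median-ratio scaling Sesn2, Ei24 and Tnfrsf10b were also lower at that threshold, at log2 differences of -0.33, -0.13 and -0.54. Tnfrsf10b was lower with the block as well (-0.47). Btg2, an antiproliferative regulator of mRNA decay, was 163, 292, 170 and 227 TPM in siNT and 76.7, 125, 59.9 and 174 TPM in siUBA1. It was lower in 4 of 4 mice, with a log2 difference of -1.04 (SE 0.321, unadjusted P = 0.00964 and adjusted p = 0.180 in limma). Plk3, a stress-responsive kinase, was 11.4, 15.1, 8.61 and 11.6 TPM in siNT and 3.78, 4.55, 2.07 and 9.15 TPM in siUBA1, at a log2 difference of -1.22 (SE 0.317, unadjusted P = 0.00376 and adjusted p = 0.156 in limma). In both genes the Uba1 muscle of mouse 4 was highest of its group and overlapped the NT range. Both genes are also known to be induced rapidly by growth factors, as immediate-early genes are.

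Immediate-early genes, a list of 17 transcription factors and other rapid-response genes, held more lower than higher genes. Of 16 tested, 7 were lower and 0 higher at an unadjusted P under 0.05, where 1.98% of all genes were lower and 16.0% higher, and the median log2 difference was -0.55. Atf3, the stress-induced repressor and activator, was 116 ± 35.1 TPM in siNT and 25.4 ± 14.1 TPM in siUBA1 (log2 difference -2.23, adjusted p = 0.0575 in limma). Myc was 11.0 ± 2.63 and 4.20 ± 1.44 TPM and Maff 10.1 ± 2.56 and 3.93 ± 1.94 TPM. With the mouse as a block Atf3, Maff and Myc fell at adjusted p = 0.00663, 0.0359 and 0.0268 in limma. The orphan receptor Nr4a1 (327 ± 28.1 and 210 ± 52.9 TPM) and Egr2 (9.27 ± 3.81 and 4.65 ± 0.901 TPM) also had groups without overlap. The summed TPM of the list was 1337 to 2405 in siNT and 848 to 1789 in siUBA1, and its part in the values of the members was not tested.

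Regulators of p53 included 3 genes that were higher and none that were lower at an unadjusted P under 0.05, among 21 tested of 25 listed (median log2 difference 0.11), a share near the 16.0% of all genes that were higher. These were the damage adaptor Trp53bp1 (2.97 ± 0.149 and 3.84 ± 0.473 TPM), Ppp1r13b, which encodes the p53 cofactor ASPP1 (6.16 ± 0.348 and 7.30 ± 0.501 TPM), and the checkpoint kinase Chek2 (1.48 ± 0.327 and 2.02 ± 0.195 TPM). With median-ratio scaling Trp53bp1 alone of these 3 stayed at that threshold. Mdm4 was 7.03 ± 0.768 and 7.91 ± 0.500 TPM. No other BCL2 family gene (12 tested of 14) and no other CDK inhibitor (5 tested of 6) was at an unadjusted P under 0.05 in the fit without the block. With it, the survival factor Mcl1 (117 ± 12.9 and 102 ± 13.7 TPM) and the BH3-only gene Bcl2l11 (2.36 ± 0.169 and 1.94 ± 0.330 TPM) were lower at that threshold and the BH3-only gene Bmf (1.71 ± 0.336 and 2.14 ± 0.604 TPM) higher, beside 2.80% of all genes lower and 22.4% higher. With median-ratio scaling and no block Mcl1 and Bcl2l11 were lower, at log2 differences of -0.31 and -0.28, beside 6.18% of all genes. Cdkn1c, the most abundant of the other CDK inhibitors, was 29.0 ± 4.84 and 33.4 ± 14.1 TPM.

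In the kinase pathway that Gadd45 proteins feed, 1 of 10 genes was higher at an unadjusted P under 0.05 and none was lower, beside 16.0% and 1.98% of all genes. With median-ratio scaling 0 were higher and 2 were lower. The higher gene was Mapk14, the gene of p38α, at 62.7 ± 2.73 and 73.5 ± 5.31 TPM (unadjusted P = 0.00980 in limma). Its log2 difference of 0.22 became 0.10 with median-ratio scaling, with an unadjusted P = 0.0852 in limma. Denervation genes (8 tested of 10) had a median log2 difference of -0.18, with 3 of 8 above 0. Musk, the receptor kinase of the neuromuscular junction, was higher at 2.47 ± 0.941 and 3.66 ± 0.559 TPM, and no gene was lower without the block. This count of 1 of 8 was near the share of all genes, and Musk did not reach the threshold with median-ratio scaling (unadjusted P = 0.0693 in limma). With the block the embryonic myosin gene Myh3 was lower, at 12.1 ± 6.98 and 8.25 ± 5.91 TPM, beside 2.80% of all genes. Of 10 proliferation markers 3 were tested and none was at an unadjusted P under 0.05. Pcna was 17.8 ± 1.22 and 15.6 ± 1.75 TPM, and it was lower with median-ratio scaling (log2 difference -0.30, unadjusted P = 0.00445 in limma), as 6.18% of all genes were.

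**Figure D4:**
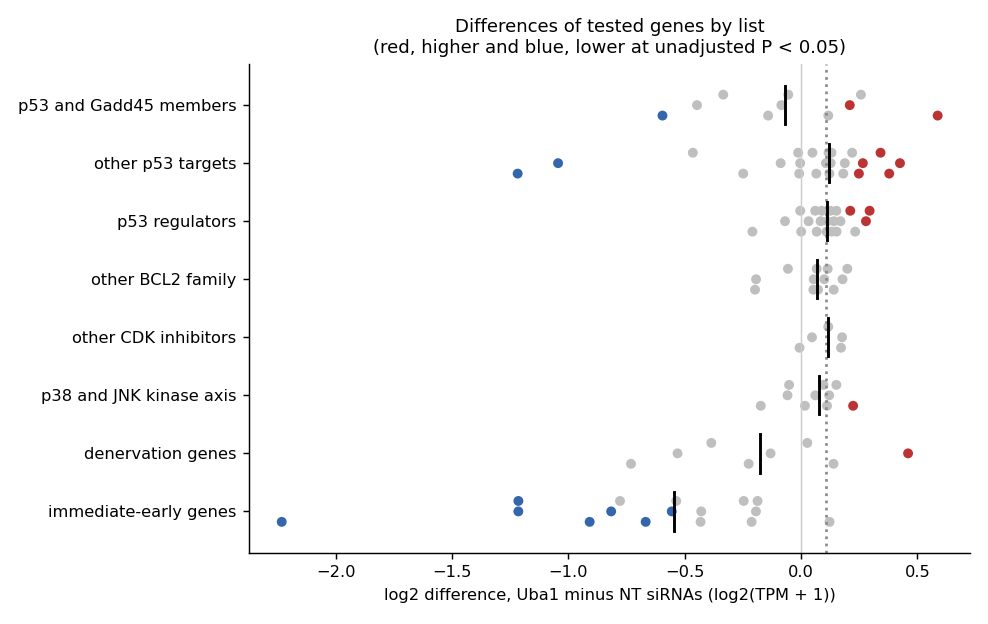
Log2 difference (siUBA1 minus siNT, horizontal axis) of each tested gene, 1 row a list, with the list median as a black bar and the median of all genes tested as a dotted line at 0.11. Red and blue points are higher and lower at an unadjusted P under 0.05. The immediate-early genes lie mostly to the left, with a median of -0.55, and the other p53 targets around the dotted line with 2 genes far to the left.

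Markers of cell types were compared because whole muscle was sequenced, and fewer cells of a type and less RNA per cell cannot be told apart in it. The myofibre markers had their defining high levels in each muscle (Acta1, skeletal actin, 38115 ± 1982 and 34390 ± 6730 TPM). Their summed level ran from 137422 to 149748 TPM in siNT and from 105197 to 151162 TPM in siUBA1, and 0 of 8 were at an unadjusted P under 0.05. With median-ratio scaling 5 of 8 were lower, beside 6.18% of all genes. Fibroblast markers were higher in 1 of 6 (Lum, 56.2 ± 13.2 and 78.3 ± 9.31 TPM) and, with the mouse as a block, also in Col1a1 and Pdgfra, where 16.0% of all genes were higher without the block and 22.4% with it. Their sum was 435 to 924 TPM in siNT and 574 to 1144 TPM in siUBA1. Of 5 satellite cell markers 1 was higher and 1 lower, beside 16.0% and 1.98% of all genes. Cdh15 was higher (11.7 ± 1.56 and 14.6 ± 1.92 TPM) and Vcam1, also an endothelial and inflammatory adhesion gene, lower (3.54 ± 0.427 and 2.16 ± 0.561 TPM). Myod1 was higher with the block, and with median-ratio scaling Vcam1 stayed lower at that threshold while Cdh15 did not reach it (unadjusted P = 0.118 in limma). No endothelial marker of 6 and no leukocyte marker of 7 tested was at that threshold without the block, Cdh5 being 51.5 ± 6.92 and 52.3 ± 6.10 TPM and S100a8 8.65 ± 4.57 and 13.2 ± 4.53 TPM. With the block S100a8 was higher (unadjusted P = 0.0436 in limma). None of the markers in any list was at 0 in all muscles. The leukocyte sum was 129 to 347 TPM in siNT and 138 to 403 TPM in siUBA1, the endothelial sum 111 to 154 and 125 to 151 TPM, and the satellite cell sum 35.5 to 47.7 and 44.3 to 63.2 TPM. The part of any of these cell types in the values of the 10 genes was not tested.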

How the data were processed

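Total RNA of 8 TA muscles was extracted with Trizol, and unstranded TruSeq RNA libraries were sequenced on an Illumina NovaSeq instrument. After quality trimming, the authors mapped reads to GRCm39 in CLC Genomics Workbench, which also gave the deposited TPM. The annotation and the handling of reads that match several genes are not given in the sources used here.

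From the deposited TPM, log2(TPM + 1) was computed, a gene was kept if 4 or more of the 8 muscles reached 1 TPM (11530 of 41709), and siUBA1 was compared with siNT in limma (version 3.58.1, R 4.3.3; lmFit, eBayes with a trend) with Benjamini-Hochberg adjustment over all genes kept. The Kruskal-Wallis test that the study used has few possible p-values with 4 against 4 and was an alternative here. Ratios and shares within a muscle were compared by exact two-sided permutation tests. The fit was tested on simulated data.

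The replicate numbers pair the samples because same-numbered muscles are contralateral muscles of 1 mouse by the labels and the study's methods. The correlations of their deviations from the group means were -0.00, 0.20, 0.58 and 0.54 for mice 1 to 4. The main fit had no block, following the study, and the mouse as a block was an alternative. The other alternatives were a pseudocount of 0.1, no filter, a mean of 5 TPM or more, median-ratio scaling, quantile normalization, TPM without mitochondrial genes, both block and scaling, the Kruskal-Wallis test, a linear model without moderation, and leaving out each muscle.

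The members and lists were chosen with earlier results of these data known. The text names the 10 genes, Uba1, up to 5 genes a list with an unadjusted P under 0.05 in the fit with or without the block (by P, otherwise the most abundant gene), and the 3 genes most alike Cdkn1a, Mdm2 and each Gadd45 gene over the muscles. For Gadd45a, 1 of these is not reported here. Sequences were read from the GRCm39 genome with GENCODE M39 transcript starts.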

Additional observations from a re-analysis of the deposited data

How the results depend on the processing

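Across 18 alternatives (17 for Bbc3, which a mean of 5 TPM or more removed), no member passed an adjusted p of 0.05, and 176 of 179 values of single members kept their direction. The exceptions were Ccng1 at -0.0044 with median-ratio scaling, with and without the replicate block, and Mdm2, which ran from -0.11 to 0.000106 over the fits that left out 1 muscle and passed 0 without siNT replicate 4. The log2 difference of Cdkn1a ranged from -0.77 to -0.40 (adjusted p 0.0686 to 0.464), that of Gadd45g from 0.46 to 0.81 (0.0679 to 0.604) and that of Bax from 0.10 to 0.27 (0.138 to 0.631). Over the fits that left out 1 muscle, Ccng1 ran from 0.04 to 0.17, Trp53 from -0.18 to -0.01 and Bbc3 from -0.23 to -0.09.

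Without the block, 2 members were higher and 1 lower at an unadjusted P under 0.05 and 2 met the study criterion. With the replicate block 3 were higher (Sesn1 in addition) and 2 lower (Gadd45b in addition), and with the replicate block and median-ratio scaling together 1 was higher, 6 lower (Trp53, Mdm2, Cdkn1a, Gadd45a, Gadd45b and Bbc3) and 1 met the criterion. The counts higher, lower and meeting the criterion were 0, 4 and 1 with median-ratio scaling, 0, 3 and 1 with quantile normalization, and 0, 0 and 0 with the Kruskal-Wallis test and with the linear model without moderation, whose P values were larger for Cdkn1a, Gadd45g and Bax. With no filter 1 was higher and 1 met the criterion, and 1 met it on TPM without mitochondrial genes. In both, Gadd45g lost its call (unadjusted P = 0.0558 and 0.0631 in limma), and on TPM without mitochondrial genes Sesn1 gained one (0.0489). The share of all genes called was not counted with no filter, without mitochondrial genes, with the Kruskal-Wallis test or without moderation. For the ratios, an exact permutation test paired by mouse gave p = 0.125 where all 4 mice agreed, including Mdm2 to Mdm4 and the Gadd45 shares, which is the smallest p that 4 pairs allow.

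Leaving out 1 muscle gave 0 to 2 members higher, 0 to 2 lower and 0 to 2 meeting the criterion. The shares of all genes called were not counted in these fits, so these counts cannot be set against them. Cdkn1a lost its unadjusted P under 0.05 without siNT replicates 1, 2 or 3 (0.0530, 0.0792 and 0.0799) and without siUBA1 replicates 2 or 4 (0.0701 and 0.0796). Gadd45g lost it without siNT replicates 1, 3 or 4 (0.0600, 0.114 and 0.108) and without siUBA1 replicates 1, 2 or 4 (0.104, 0.116 and 0.0867). Bax lost it without siNT replicates 1, 2 or 4 (0.0859, 0.0979 and 0.109) and without siUBA1 replicates 1 or 3 (0.112 and 0.106). Gadd45a reached it without siNT replicate 1 (0.00856), Gadd45b without siNT replicate 1 or siUBA1 replicate 4 (0.0172 and 0.0449), Sesn1 without siUBA1 replicate 4 (0.0382) and Bbc3 without siUBA1 replicate 3 (0.0447). The difference of the Bax to Bcl2 log2 ratio was -0.06 over all muscles and ran from -0.21 to 0.083 over these fits, above 0 without siNT replicate 4 and, at 0.01, without siUBA1 replicate 2. That of Mdm2 to Trp53 was 0.04 and ran from -0.031 to 0.18, below 0 without siNT replicate 1, siNT replicate 3 or siUBA1 replicate 2.

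TPM carry no depth, so counting error is unknown, most of all for Bbc3 and Bcl2 at 1 to 2 TPM. The cause of these changes was not tested.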

Other observations

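Over the 8 muscles, the tested genes whose log2(TPM + 1) was most alike that of Cdkn1a were Vasp, Pard6a and Bpnt1 (Pearson r 0.965, 0.941 and 0.934). For Mdm2 they were Exd2, Nt5dc1 and Stxbp3 (0.971, 0.952 and 0.929), for Gadd45a Higd2a and Sox6os (0.954 and 0.953), for Gadd45b Pold2, Sertad1 and the table's entry Ddit3_1 (0.976, 0.961 and 0.959), and for Gadd45g Chchd3, Mpped2 and Plet1os (0.965, 0.952 and 0.950). These are the highest of 11530 values each over 8 points that share their libraries and their siRNA group, and they are given as a description.

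The lncRNA gene Trp53cor1, a neighbour of Cdkn1a known as lincRNA-p21, was listed at 0.272, 0.173, 0.197 and 0.222 TPM in the NT muscles of mice 1 to 4 and at 0.726, 0.531, 0.389 and 0.335 TPM in the Uba1 muscles. The groups did not overlap and it was higher in 4 of 4 mice, the direction opposite to that of Cdkn1a. It was below the filter, was chosen after its values were seen and had no test in limma.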
